A study of Mus musculus with 6 samples.

Results

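Collagen synthesis and processing enzymes are described here as a set of 10 genes, P4ha1, P4ha2, P4ha3, P4hb, Plod1, Plod2, Plod3, Serpinh1, Bmp1 and Pcolce, found by gene name among the 54532 genes of the count table. All 10 had enough counts to be among the 14774 genes tested. RNA-seq counts came from left ventricles, 3 from TG and 3 from NTG mice, with 1 library per heart, 4 weeks after aortic banding (AB), which narrows the aorta and overloads the ventricle. Both groups were banded, and the mice were male and 8 to 10 weeks old at surgery. TG mice (HINT2CTG-Myh6Cre) overexpress HINT2 in cardiomyocytes, with CAG-HINT2 switched on by Myh6-driven Cre after tamoxifen at 5 mg/kg per day for 7 days, and NTG mice are labelled C57BL/6J. Whether NTG mice carried Cre or received tamoxifen is not given in the sources used here, so the transgene, Cre and tamoxifen cannot be told apart. The comparison asks how these genes differ between banded hearts with and without cardiomyocyte HINT2 overexpression.

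Collagen is made in the endoplasmic reticulum as procollagen chains that are hydroxylated before they fold into a helix. Prolyl hydroxylation makes the helix stable at body temperature, lysyl hydroxylation prepares the chains for sugar addition and crosslinking, and a dedicated chaperone holds the folded molecule until it leaves the compartment. Outside the cell, proteinases remove the end propeptides so that fibrils can form. In the pressure-overloaded heart, fibroblasts are the main makers of fibrillar collagen.

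In TG hearts, 6 of these genes had lower levels than in NTG hearts with edgeR's unadjusted p below 0.05, namely P4ha3, P4hb, Plod2, Plod3, Bmp1 and Pcolce. The largest difference per gene was in P4ha3, the rarest prolyl hydroxylase subunit, followed by Plod2, the lysyl hydroxylase of the collagen ends, and Pcolce, the enhancer of propeptide removal. The levels of P4ha1, P4ha2, Plod1 and Serpinh1 differed by less than the spread between hearts. With edgeR's quasi-likelihood test and adjustment over all genes tested, 0 of the 10 were called, where a call needs a difference of more than 0.5 on the log2 scale besides an adjusted p below 0.05. That test called 0.0% of all genes. Of all genes tested, 9.76% were lower and 8.83% higher at an unadjusted p under 0.05 with edgeR, against 6 and 0 of the 10. DESeq2, the tool named in the study's methods, called P4ha3, Plod2 and Pcolce lower and 0 of the 10 higher, where it called 2.4% of all genes lower and 1.54% higher. For these same 3 genes every TG library lay below every NTG library, an order found in 12.3% of all genes tested. The median log2 fold change of the 10 was −0.41, with 8 fitted lower, against −0.0081 over all genes tested.

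Total counts were 14863568 to 17581220 in NTG and 14944465 to 17235802 in TG libraries. Reads on mouse Hint2, where transgene and native transcripts were not separated, were 793, 828 and 859 in the TG libraries, and 12, 545 and 559 in NTG 1, NTG 2 and NTG 3. The count of 12 goes against the other NTG hearts. By the chi-square per gene between pairs of libraries, the library labelled NTG 1 also lay nearer to TG 1, TG 2 and TG 3 (22.1, 18.1 and 28.6) than to NTG 2 and NTG 3 (72.5 and 33.9), so fold changes are also given without it. NTG 2 also stood apart, with the highest level of 7 of the 10 genes, and fold changes or medians without it are given beside each of the 6 genes with lower levels and each related gene list of the pathway, while group means, shares and ratios rest on all 6 libraries. Markers of cardiomyocytes were abundant in all libraries, as the tissue label states, with summed levels of 18350 to 36980 CPM (counts scaled to a common library size, TMM-normalized). Markers of the atrium were uneven, at 67.5 CPM in NTG 1, 29.2 in TG 2 and 167 in TG 3 and at most 4.54 in the other libraries.

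Levels between genes were compared only per transcript length, as RPKM, which is CPM divided by the gene's length in kilobases. In NTG hearts Serpinh1 was the most abundant, at 249 ± 26.5 RPKM (SD, n = 3, as for all means given here). P4hb followed at 137 ± 16.1 RPKM, then Pcolce at 49.2 ± 9.53 and P4ha1 at 43.7 ± 2.64. Below them came Plod1 at 28.1 ± 2.02 RPKM, Plod3 at 19.1 ± 3.79 and Plod2 at 15.1 ± 3.46. The lowest levels were those of P4ha2 at 11.4 ± 0.527 RPKM, Bmp1 at 9.81 ± 2.69 and P4ha3 at 1.09 ± 0.927. Neighbours in this order whose NTG libraries overlapped were Pcolce and P4ha1, Plod3 and Plod2, and P4ha2 and Bmp1. In TG hearts Plod2 stood below P4ha2, at 7.92 ± 1.28 against 11.3 ± 0.354 RPKM, with no overlap, and Pcolce at 29.9 ± 6.65 RPKM stood below P4ha1 at 43.4 ± 8.70, with overlap.

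Prolyl hydroxylation is carried out by a complex of alpha subunits, which hold the catalytic site, and P4hb, the beta subunit, which is also protein disulfide isomerase. P4ha1 (ENSMUSG00000019916), the widely expressed alpha subunit, is at chr10:59323296-59373304 (plus strand, GRCm38, as for all positions). Its level was 190.7, 179.7 and 169 CPM in NTG 1, NTG 2 and NTG 3 and 138.6, 207.5 and 189.8 CPM in TG 1, TG 2 and TG 3. The highest and the lowest library were both TG. The fitted log2 difference was −0.0089 (SE 0.15, edgeR adjusted p = 0.982). P4ha2 (ENSMUSG00000018906), the alpha subunit prominent in cartilage and bone, is at chr11:54100095-54131665 (plus strand). It measured 72.5, 73.6 and 67.4 CPM in NTG and 67.8, 71.6 and 71.7 CPM in TG hearts, the narrowest spread of the 10 genes relative to its mean, and the groups overlapped. TG minus NTG was −0.016 on the log2 scale (SE 0.083, edgeR adjusted p = 0.933).

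P4ha3 (ENSMUSG00000051048), the third alpha subunit, is at chr7:100285520-100319699 (plus strand). It had 31, 127 and 24 counts in NTG and 5, 15 and 5 counts in TG libraries, which is 2.12, 6.74 and 1.39 CPM against 0.361, 0.853 and 0.309 CPM. Every TG library lay below every NTG library, and NTG 2 alone held most of the NTG counts. An exact Poisson interval (95%, counting error only) ran from 1.62 to 11.7 for a count of 5 and from 106 to 151 for the count of NTG 2. By the fit, the log2 fold change came to −2.72 (SE 0.72, edgeR adjusted p = 0.196, DESeq2 adjusted p = 0.00708). Without NTG 1 it was −2.97, and without NTG 2 it was −1.74 and the gene was called by neither tool. P4ha3 passed the filter on low counts through all 3 NTG libraries and TG 2.

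P4hb (ENSMUSG00000025130) is at chr11:120560298-120573253 (minus strand). Its level was 345.3, 437.5 and 395.7 CPM in NTG and 282.4, 347.6 and 281.7 CPM in TG hearts. TG 2 lay just above NTG 1, and the other TG hearts lay below all NTG hearts. The fitted log2 difference was −0.37 (SE 0.14, unadjusted p = 0.0296, edgeR adjusted p = 0.229), under the size that a call needs, and it was −0.46 without NTG 1 and −0.29 without NTG 2. Within each library, the ratio of P4hb to the summed alpha subunits in RPKM was 2.45 ± 0.341 in NTG and 1.96 ± 0.252 in TG hearts, and the groups overlapped (exact permutation test, two-sided, p = 0.2, adjusted p = 0.32 over the 8 ratios computed among these genes). The smallest p that 3 hearts against 3 allow is 0.1.

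The promoters of P4ha1 and P4hb are shown because P4hb was among the 6 genes lower at an unadjusted p under 0.05 and its partner P4ha1 was not, while both hold ACGTG, a common core of the element that hypoxia-inducible factors bind. Promoter letters are from RefSeq on GRCm38.p6, 250 bases before to 50 after the annotated start, 5′ to 3′ on the strand of the gene. Capitals mark ACGTG or its reverse complement and CCAAT or its reverse complement. The P4ha1 window is chr10:59323046-59323345 on the plus strand and the P4hb window is chr11:120573204-120573503 on the minus strand.
P4ha1: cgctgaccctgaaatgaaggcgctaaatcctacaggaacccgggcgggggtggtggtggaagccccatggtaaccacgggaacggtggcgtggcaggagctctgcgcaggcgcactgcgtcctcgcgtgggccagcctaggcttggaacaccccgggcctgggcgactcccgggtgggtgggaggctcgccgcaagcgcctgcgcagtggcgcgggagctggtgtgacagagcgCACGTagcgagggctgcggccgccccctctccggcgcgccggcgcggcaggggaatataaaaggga
P4hb: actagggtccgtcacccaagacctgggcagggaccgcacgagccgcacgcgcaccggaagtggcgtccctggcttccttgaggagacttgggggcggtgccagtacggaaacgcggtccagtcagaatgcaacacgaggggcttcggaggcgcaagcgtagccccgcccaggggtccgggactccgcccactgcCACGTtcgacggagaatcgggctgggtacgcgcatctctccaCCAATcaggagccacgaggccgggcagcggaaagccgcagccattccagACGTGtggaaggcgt
ACGTG on either strand was in the promoters of P4ha1, P4ha2, P4hb, Plod3 and Serpinh1, 5 of the 8 of these genes with a RefSeq promoter, against 19.6% of 32851 promoters. It was therefore in 2 of the genes with lower levels in TG hearts and in 3 of those that differed by less than the spread. CCAAT, on either strand, was in P4hb and Plod3, against 37.4% of all promoters. GGGCGG, the GC box, was in 7 of the 8, all but Plod3, against 35.7%, and the median GC content of all promoters was 52.7%, while the P4ha1 window held 70.3%. TATAAA was in P4ha1, after the start, and in Plod1, against 13.6%. The longer ER stress response element, CCAAT, 9 bases and CCACG, was in none of the 8, and 0.119% of all promoters held it. Plod2 and Bmp1 were not matched.

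**Figure D1:**
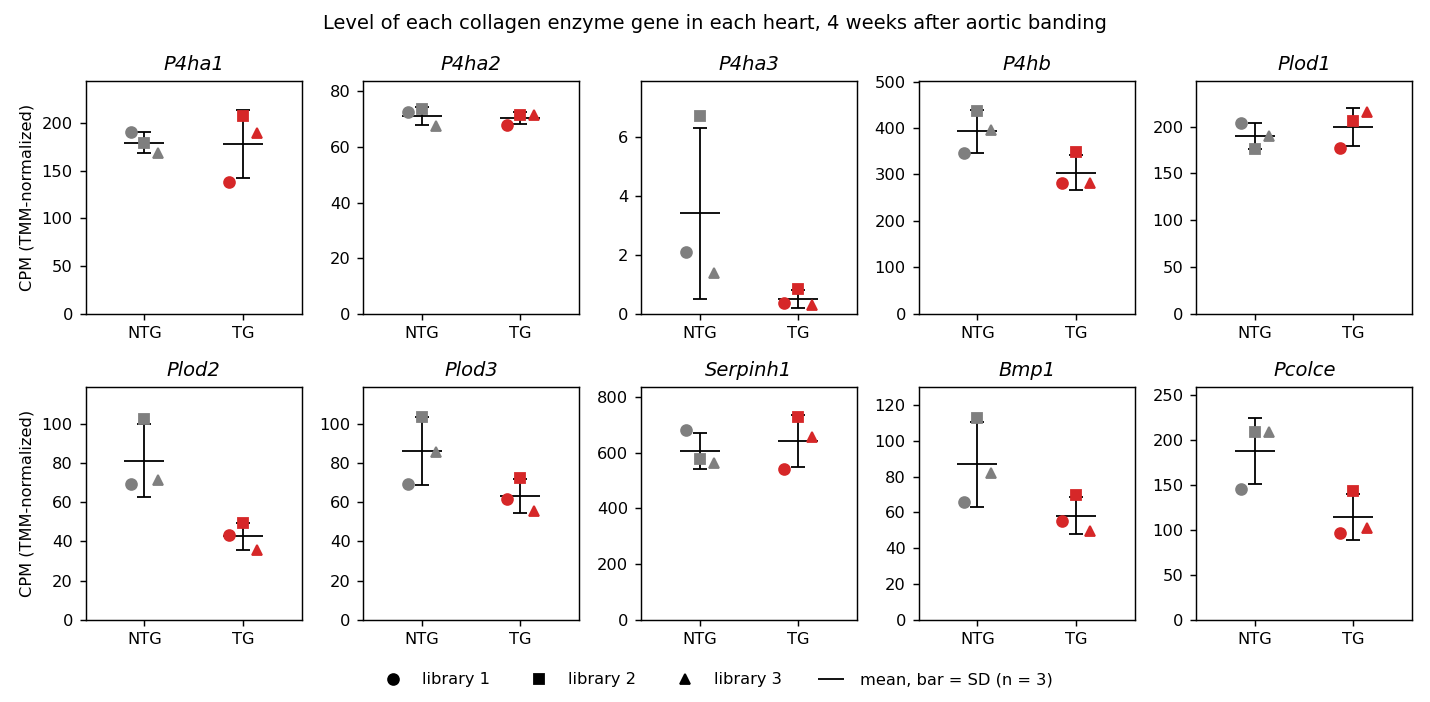
Level of each gene in each heart in TMM-normalized CPM (vertical axes, each starting at 0) for NTG (grey) and TG (red), with symbols for libraries 1, 2 and 3 and the mean and SD as horizontal and vertical lines. For P4ha3, Plod2 and Pcolce all TG points lie below all NTG points, for P4hb, Plod3 and Bmp1 the TG 2 point lies above NTG 1, and for the other 4 genes the groups are interleaved.

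Lysyl hydroxylases differ in the part of the chain they act on. Plod1 (ENSMUSG00000019055), which hydroxylates lysines of the helix, is at chr4:147909753-147936767 (minus strand). It measured 203.6, 176.3 and 190.3 CPM in NTG and 176.8, 206.5 and 215.6 CPM in TG hearts. The groups overlapped, and the fitted log2 difference was 0.071 (SE 0.11, edgeR adjusted p = 0.760).

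Plod2 (ENSMUSG00000032374), which hydroxylates the telopeptide lysines at the ends of the chains and so sets the kind of crosslink formed, is at chr9:92542223-92608428 (plus strand). Its level was 69.6, 103 and 71.3 CPM in NTG and 43.2, 49.3 and 35.6 CPM in TG hearts. Every TG heart lay below every NTG heart, and NTG 2 was highest. The means were 81.2 ± 18.6 CPM in NTG and 42.7 ± 6.88 CPM in TG hearts, 1.90-fold higher in NTG. TG minus NTG was −0.93 on the log2 scale (SE 0.18, unadjusted p = 0.00107, edgeR adjusted p = 0.196, DESeq2 adjusted p = 0.00142). Without NTG 1 it was −1.03 and was called by edgeR (adjusted p = 0.0341), and without NTG 2 it was −0.72 and was called by DESeq2 (adjusted p = 0.0128) but not by edgeR.

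Plod3 (ENSMUSG00000004846), which also transfers sugars onto hydroxylysine, is at chr5:136987019-136996648 (plus strand). It measured 69.2, 103.5 and 85.6 CPM in NTG and 61.7, 72.4 and 55.3 CPM in TG hearts. TG 2 lay above NTG 1, and the other TG hearts lay below all NTG hearts. By the fit, the log2 fold change came to −0.45 (SE 0.16, unadjusted p = 0.0254, edgeR adjusted p = 0.221). It was −0.58 without NTG 1 (adjusted p = 0.0486, edgeR) and −0.29 without NTG 2. Plod3 shares 1003 bases with Znhit1 on the opposite strand, which had 410 to 578 counts, and the strand setting of the counting is not given in the sources used here, so its counts are less certain. Plod2 and Pcolce overlap other genes too, but those had at most 26 and 15 counts.

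Plod2 took a smaller share of the lysyl hydroxylase family in every TG heart than in any NTG heart. It took 24.0% ± 3.45 of the summed RPKM of the family in NTG and 15.4% ± 2.07 in TG hearts, while Plod1 took 45.5% ± 6.72 and 57.4% ± 4.69. The ratio of Plod2 to Plod1 was 0.429, 0.731 and 0.470 in NTG 1, NTG 2 and NTG 3 and 0.307, 0.300 and 0.207 in TG 1, TG 2 and TG 3. All TG ratios lay below all NTG ratios (exact permutation test, two-sided, p = 0.1, adjusted p = 0.2 over 8 ratios). The ratio of Plod3 to Plod2 was 1.27 ± 0.137 in NTG and 1.77 ± 0.0771 in TG hearts, without overlap and with the same p values. The ratio of Plod3 to Plod1 was 0.687 ± 0.185 and 0.477 ± 0.0808 and overlapped (exact permutation test, p = 0.3). Among the alpha subunits, P4ha1 took 77.8% ± 1.73 and 78.8% ± 3.004 of the family's RPKM in NTG and TG hearts, P4ha2 took 20.3% ± 0.439 and 20.9% ± 3.06, and P4ha3 took 1.91% ± 1.59 and 0.289% ± 0.136. The ratio of P4ha2 to P4ha1 was 0.261 ± 0.00975 in NTG and 0.266 ± 0.0498 in TG hearts (exact permutation test, p = 1). The ratios of P4ha3 to P4ha1 and to P4ha2 did not overlap between groups (exact permutation test, p = 0.1, adjusted p = 0.2). By library, the P4ha3 share was 1.15%, 3.73% and 0.85% in NTG 1, NTG 2 and NTG 3, so its NTG mean leaned on NTG 2.

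**Figure D2:**
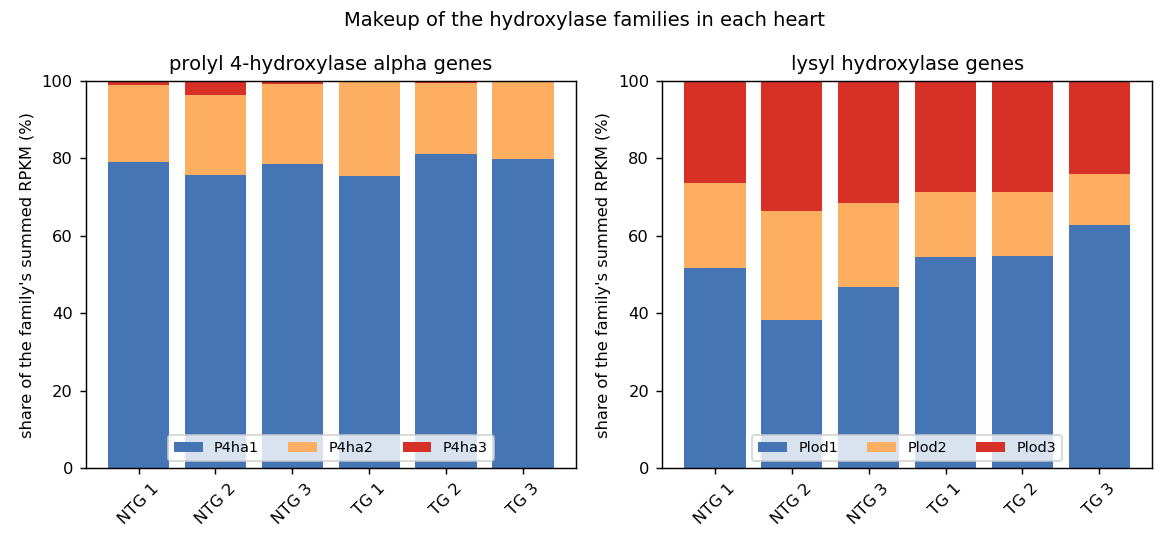
Share of each alpha subunit (left) and lysyl hydroxylase gene (right) in the summed RPKM of its family, in percent, stacked to 100 for each of the 6 libraries. In the right panel the Plod2 share lies between 21.9% and 28.0% in NTG and between 13.0% and 16.8% in TG libraries, and in the left panel P4ha1 takes 75.4% to 81.1% in all.

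The promoters of Plod1 and Plod3 are shown because Plod3 was among those 6 genes and its paralog Plod1 was not. This split by p is not a shown difference between them, as their ratio overlapped (exact permutation test, p = 0.3). The same windows, motifs and capitals apply, at chr4:147936727-147937026 on the minus strand for Plod1 and chr5:136986769-136987068 on the plus strand for Plod3.
Plod1: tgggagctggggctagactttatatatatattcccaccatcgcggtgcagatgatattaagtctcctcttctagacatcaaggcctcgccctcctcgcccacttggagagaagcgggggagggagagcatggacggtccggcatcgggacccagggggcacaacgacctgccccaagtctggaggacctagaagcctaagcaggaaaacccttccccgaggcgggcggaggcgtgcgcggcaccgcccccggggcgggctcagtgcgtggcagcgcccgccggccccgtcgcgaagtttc
Plod3: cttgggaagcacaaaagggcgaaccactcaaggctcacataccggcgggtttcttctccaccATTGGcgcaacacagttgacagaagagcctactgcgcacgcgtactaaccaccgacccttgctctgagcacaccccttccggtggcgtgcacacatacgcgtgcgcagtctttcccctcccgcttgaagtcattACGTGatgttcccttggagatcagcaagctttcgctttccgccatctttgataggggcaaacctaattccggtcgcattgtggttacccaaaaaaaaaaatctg
The Plod1 window had neither ACGTG nor CCAAT and held 64.3% GC. The Plod3 window had both and held 53.3% GC.

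Serpinh1 (ENSMUSG00000070436) encodes the chaperone that binds folded procollagen, and is at chr7:99345376-99353239 (minus strand). It measured 682.1, 577.9 and 563.8 CPM in NTG and 540.8, 728.2 and 656.6 CPM in TG hearts. The highest and the lowest heart were both TG. The fitted log2 difference was 0.079 (SE 0.15, edgeR adjusted p = 0.804), and over the alternatives it ran from −0.022 to 0.19.

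Bmp1 (ENSMUSG00000022098), the proteinase that removes the C-terminal propeptide, is at chr14:70474558-70520234 (minus strand). It measured 65.8, 113 and 82.3 CPM in NTG and 55.0, 69.9 and 49.8 CPM in TG hearts. TG 2 lay above NTG 1, and NTG 2 was far above the rest. TG minus NTG was −0.58 on the log2 scale (SE 0.21, unadjusted p = 0.0279, edgeR adjusted p = 0.226, DESeq2 adjusted p = 0.122), and it was −0.75 without NTG 1 and −0.35 without NTG 2.

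Pcolce (ENSMUSG00000029718), a secreted protein that binds procollagen and speeds cleavage by Bmp1, is at chr5:137605103-137613784 (minus strand). Its level was 146, 209.5 and 208.8 CPM in NTG and 96.5, 143.3 and 102.7 CPM in TG hearts. TG 2 lay just below NTG 1, and the groups did not overlap. The means were 188 ± 36.5 and 114 ± 25.4 CPM, 1.65-fold higher in NTG hearts. By the fit, the log2 fold change came to −0.72 (SE 0.20, unadjusted p = 0.00658, edgeR adjusted p = 0.196, DESeq2 adjusted p = 0.0246). It was −0.88 without NTG 1 (adjusted p = 0.0320, edgeR) and −0.64 without NTG 2, where neither tool called it. DESeq2 called it in 2 of the 6 fits that each left out 1 library, those without NTG 1 and without TG 2. The ratio of Pcolce to Bmp1 was 5.11 ± 0.791 in NTG and 4.54 ± 0.403 in TG hearts and overlapped (exact permutation test, p = 0.4).

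**Figure D3:**
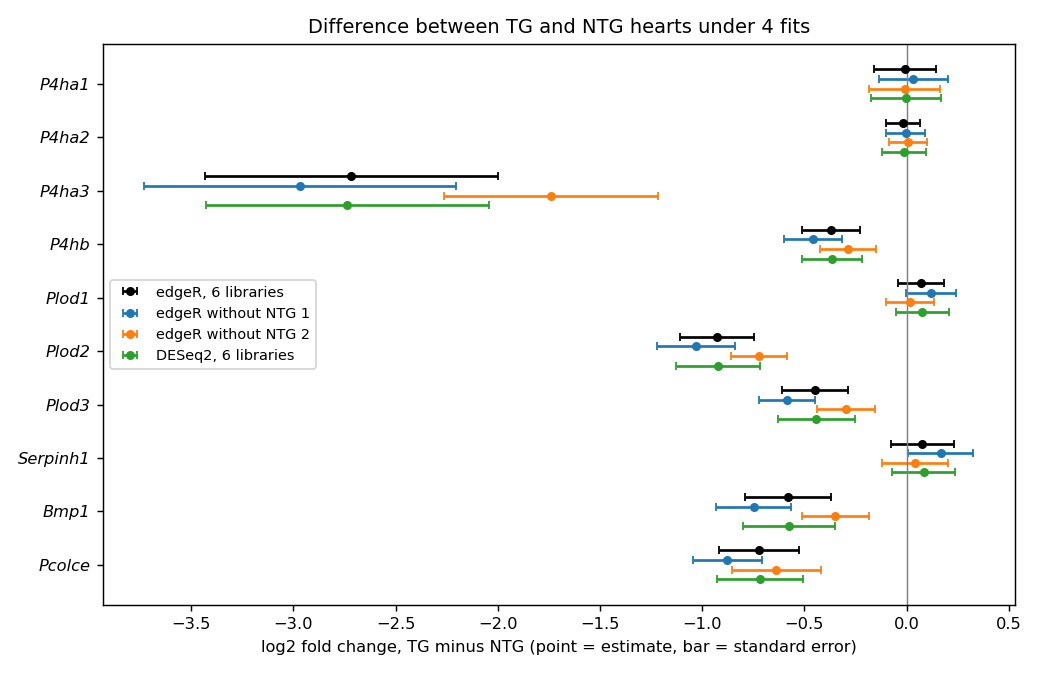
Log2 fold change of TG against NTG hearts (horizontal axis, below 0 is lower in TG) for each gene, with standard errors, from edgeR on all 6 libraries, without NTG 1 and without NTG 2, and from DESeq2 on all 6. P4ha3, P4hb, Plod2, Plod3, Bmp1 and Pcolce lie below 0 in all 4 fits and move toward 0 without NTG 2, and the other 4 genes stay near 0.

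Without NTG 1, edgeR called Plod2, Plod3 and Pcolce lower and 0 of the 10 genes higher, where it called 2.85% of all genes lower and 2.67% higher. DESeq2 called 5 of the 10 lower in the same libraries, these and P4ha3 and Bmp1, where it called 5.79% of all genes lower. The fitted values of P4ha1, P4ha2, Plod1 and Serpinh1 without NTG 1 were log2 fold changes of 0.033, −0.0049, 0.12 and 0.17 with edgeR. Without NTG 2, edgeR called 0 of the 10, with P4ha3, Plod2 and Pcolce lower at an unadjusted p under 0.05, as were 5.37% of all genes, and DESeq2 called Plod2 alone, where it called 0.507% of all genes lower. The calls of DESeq2 also changed with other libraries left out. It called 2 of the 10 lower without NTG 3, 1 without TG 1, 3 without TG 2 and 0 without TG 3, against 0.853%, 0.501%, 3.23% and 0.445% of all genes lower in the same fits. Plod2 was not called without TG 3 (DESeq2 adjusted p = 0.0548), so that 0 of the 10 were called there. P4ha3 was not called without TG 1 or TG 3 (DESeq2 adjusted p = 0.0887 and 0.119). Pcolce was not called without NTG 3, TG 1 or TG 3 (DESeq2 adjusted p = 0.247, 0.266 and 0.244).

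The 6 genes with an unadjusted p under 0.05 varied together across hearts. Over the 6 libraries, Pearson's r of their log2 CPM ran from 0.846 to 0.996 between pairs of them, from 0.292 to 0.882 among the other 4 genes and from −0.559 to 0.506 between the sets. These are descriptions over libraries that share the group difference and were chosen in part by it. Mean log2 CPM of the 10 genes, centred per gene, was 0.12, 0.51 and 0.14 in NTG 1, NTG 2 and NTG 3 and −0.41, −0.0098 and −0.36 in TG 1, TG 2 and TG 3. TG 2 was the TG heart nearest to the NTG hearts. The share of counts on the mitochondrial genome was 19.2%, 13.4% and 14.3% in these NTG and 21.5%, 16.0% and 20.3% in these TG libraries, lowest where the mean was highest and highest where it was lowest, and its part in the differences was not tested. With those genes left out of the counts, the median log2 fold change of the 10 was −0.41. Among the genes most like this mean, of 13733 compared over the 6 libraries, were Poglut1, Rlf, Clec11a and Igf1, with r from 0.996 to 0.998, and 321 genes had an r over 0.95. Igf1, which encodes insulin-like growth factor, measured 38.8, 66.7 and 43.5 CPM in NTG and 19.2, 35.4 and 20.7 CPM in TG hearts. The groups did not overlap for Igf1, which its choice by likeness to this mean made likely, as the mean itself did not overlap.

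**Figure D4:**
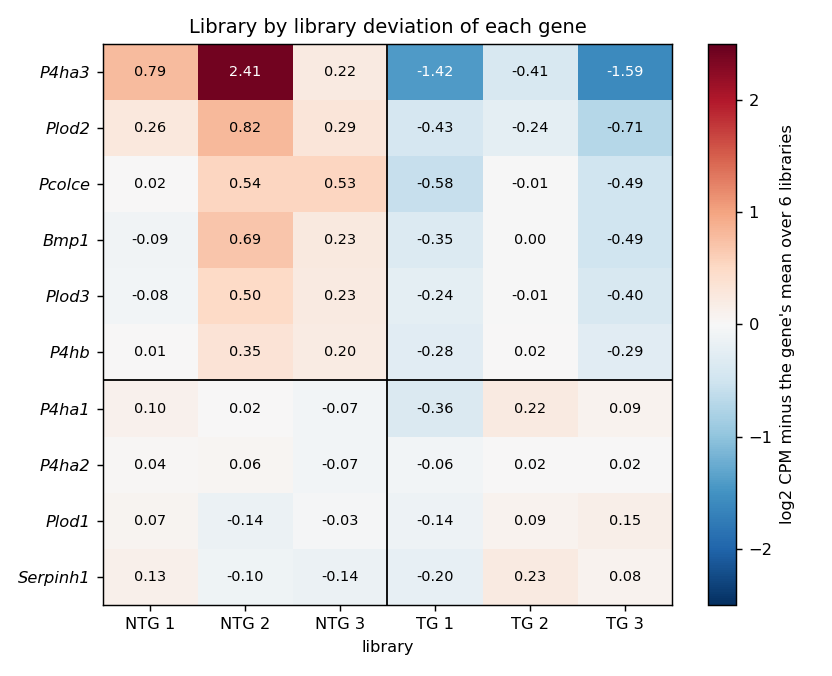
Log2 CPM of each gene minus its mean over the 6 libraries (colour and printed value), with the 6 genes at an unadjusted p under 0.05 above the horizontal line and NTG left of the vertical line. NTG 2 is the highest library for all 6 genes above the line, while P4ha1, P4ha2, Plod1 and Serpinh1 deviate by at most 0.36.

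At an unadjusted p under 0.05 with edgeR, 6 of the 10 genes were lower without NTG 1 or without TG 2, 4 without NTG 3 and 3 without NTG 2, TG 1 or TG 3. Of all genes, 13.3% were lower without NTG 1, 7.07% without NTG 3, 5.62% without TG 1, 10.2% without TG 2 and 6.09% without TG 3. In the other direction 0 of the 10 were higher in these fits, against 13.7% of all genes without NTG 1, 5.08% without NTG 2, 5.15% without NTG 3, 4.98% without TG 1, 9.08% without TG 2 and 5.35% without TG 3. The counts of related genes and markers with a library left out stand against these shares, which moved with the same libraries.

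Related genes were read from lists of the same pathway. Of 10 other collagen modifying enzymes and chaperones, 6 were lower and 0 higher at an unadjusted p under 0.05, with a median log2 fold change of −0.37. Without NTG 1 there were 8 lower with a median of −0.52, without NTG 2 there were 2 with −0.23, and 2 were lower without TG 1 or without TG 3. P3h2, a prolyl 3-hydroxylase, and Fkbp10, a prolyl isomerase of procollagen, were called by DESeq2 (log2 fold changes −0.86 and −0.74, adjusted p = 0.0235 and 0.0313), and P3h3 was next at −0.63. Of 6 other propeptide processing genes tested, 3 were lower and 0 higher, with a median of −0.072. With each library left out in turn, 2 or 3 were lower and 0 or 1 higher, and the median ran from −0.23 without NTG 1 to −0.017 without TG 3, with 2 lower and −0.12 without NTG 2. Adamts2, the N-propeptidase, was called by DESeq2 (log2 fold change −1.19, adjusted p = 0.00557), while Pcolce2 and Tll1 had −0.68 and −2.18. Tll1 was near the floor, with 10, 78 and 52 counts in NTG and 5, 18 and 5 in TG libraries. Its SE was 0.72, and NTG 1 lay below TG 2. Mep1a and Mep1b had no counts in any library.

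Of 14 genes for procollagen export and retrieval, 4 were lower and 1 was higher at an unadjusted p under 0.05, with a median of −0.16, or −0.22 without NTG 1 and −0.11 without NTG 2, and 0 called by DESeq2. The count of lower genes was 5 without NTG 1, 2 without NTG 2 or TG 3, 1 without NTG 3 or TG 1, and 6 without TG 2. Kdelr2 and Kdelr1, receptors that return proteins such as P4hb to the endoplasmic reticulum, had log2 fold changes of −0.46 and −0.25, and Sar1b, a coat GTPase, had 0.38. Of 12 general folding genes of the endoplasmic reticulum, 2 were lower and 0 higher, with a median of −0.085 and 0 called by DESeq2. From 1 to 3 were lower with each library left out in turn, 3 of them without NTG 1 and 1 without NTG 2, and 1 was higher without TG 1. The median was −0.12 without NTG 1 and −0.039 without NTG 2, and ran from −0.16 without TG 2 to −0.010 without TG 1. In the 6 libraries these were Ero1l and Ero1lb, oxidases that recharge protein disulfide isomerases, at −0.77 and −0.45, and Pdia3, next by p, had −0.27.

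Substrates and later crosslinking enzymes had lower medians than these enzymes, a difference that was not tested. Of 9 fibrillar collagen chains tested, 5 were lower and 1 was higher, with a median of −0.74. The median was −0.95 without NTG 1 and −0.47, with 4 lower and 0 higher, without NTG 2. DESeq2 called Col1a1, Col1a2 and Col5a2 lower, of which Col1a1 is named after its value was seen. By edgeR's unadjusted p, Col5a2, Col3a1 and Col1a2 came first, with log2 fold changes of −1.70, −1.45 and −1.18, and the higher chain, named in the same way, was Col11a2 at 0.87. All 5 crosslinking oxidases were lower, with a median of −1.28, and 3 of them without NTG 2, where the median was −1.01, while all 5 were lower without NTG 1, with −1.54. Lox measured 614 CPM in NTG 2 against 114 and 177 CPM in NTG 1 and NTG 3. Of the 5, on all libraries, DESeq2 called 4, among them Lox at −3.45, Loxl3 at −2.06 and Loxl1 at −0.87. Summed RPKM of the fibrillar chains was 292, 690 and 390 in NTG and 186, 264 and 144 in TG hearts. Summed RPKM of the 10 enzyme genes was 562, 583 and 546 in NTG and 444, 583 and 508 in TG hearts, so that the sets overlapped for the enzymes and not for the chains. Per 100 RPKM of fibrillar collagen there were 192, 84.4 and 140 RPKM of these enzymes in NTG and 239, 221 and 352 in TG hearts, and every TG heart lay above every NTG heart. Serpinh1 and P4hb make up most of that sum.

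P4ha1, P4ha2 and Plod2 are known targets of hypoxia-inducible factors, so other hypoxia responsive genes were read beside them. Of 10, 3 were lower and 1 was higher, with a median of −0.42. Without NTG 1 there were 6 lower with a median of −0.64, and without NTG 2 there were 3 lower and 0 higher with −0.23. In all 6 libraries DESeq2 called Ndrg1, Bnip3 and Slc2a1 lower (log2 fold changes −0.79, −0.55 and −1.16). The higher gene, named after its value was seen, was Vegfa at 0.31. Of 4 other prolyl hydroxylases, which mark the hypoxia-inducible factors for breakdown, 1 was lower and 0 higher, with a median of 0.20, which was 0.24 without NTG 1 and 0.074 without NTG 2, and Egln3 had the smallest p, at −0.47.

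Markers of some other cell types moved with these genes and those of cardiomyocytes went the other way. Their part in the differences was not tested. Of 8 activated fibroblast markers, 5 were lower and 1 was higher, with summed levels of 2259, 6070 and 3914 CPM in NTG and 734, 1587 and 533 CPM in TG hearts, and the higher one, named after its value was seen, was Acta2. Of 8 general fibroblast markers, 4 were lower and 0 higher, with sums of 4408 to 4845 CPM in NTG and 3375 to 4572 CPM in TG hearts. With each library left out in turn, 4 to 6 activated and 2 to 5 general fibroblast markers were lower, the 2 without NTG 2. In whole ventricle, fewer cells of a type and less RNA per cell cannot be told apart. Of 6 macrophage markers 3 were lower, with sums of 799 to 1464 CPM in NTG and 591 to 823 CPM in TG hearts, and all 4 erythroid markers were lower, with 1236 to 2085 and 716 to 848 CPM. The count of lower macrophage markers ran from 0 without TG 1, 1 without TG 2 and 2 without NTG 2 to 4 without NTG 1, NTG 3 or TG 3, and that of erythroid markers from 3 to 4. Of 7 cardiomyocyte markers, 2 were higher and 0 lower, with sums of 18350 to 31140 CPM in NTG and 29780 to 36980 CPM in TG hearts. The count of higher cardiomyocyte markers was 5 without NTG 1, 1 without NTG 2 and 0 without NTG 3, TG 1 or TG 3. None of 6 endothelial and 7 smooth muscle or pericyte markers was lower at an unadjusted p under 0.05 with edgeR, while 2 and 1 were higher, or 1 and 1 without NTG 2. No marker of the atrium, mesothelium, lymphocytes or cartilage and bone that could be tested (3, 1, 2 and 3 genes) had an unadjusted p under 0.05 with edgeR on all 6 libraries, and no cell type had all its markers at 0.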

How the data were processed

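The authors prepared poly-A selected RNA-seq libraries from the left ventricle, counted reads per gene with featureCounts and deposited these raw counts, with gene lengths, for 6 libraries without normalization or pooling. Their processing notes name HISAT2, DESeq2 and the build GRCh38, while the gene identifiers are of mouse, and of 54409 genes shared with GENCODE M21 (GRCm38) 98.3% had identical coordinates. Positions are therefore given on GRCm38. The methods head the experiment as a microarray. The strand setting is not given in the sources used here. Columns were matched by label, with 0 left unmatched, and every pair of libraries differed by more than sampling noise.

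Counts were compared in R 4.3.3 with edgeR 4.0.16 (TMM, filterByExpr with a minimum count of 10, which is 0.595 CPM in at least 3 libraries, quasi-likelihood test, Benjamini-Hochberg adjustment over 14774 genes). Calls needed more than 0.5 on the log2 scale besides an adjusted p below 0.05, and p-values measure the spread between hearts. TMM-normalized CPM and RPKM, which used the deposited gene lengths, were computed here, and log2 CPM has a prior count of 2. The alternatives, 24 in all, included other scalings and filters, DESeq2 1.42.0, limma 3.58.1 (voom) and each library left out. Leaving out each library for the gene lists was added after the values were seen. The scripts were tested on simulated data. The members and gene lists, which were written from recalled knowledge, were chosen with earlier results of these data known. Named genes were the 10 members, Hint2, the 3 genes of each pathway list with the smallest p and the 5 genes nearest in pattern (1 is not reported here), with exceptions marked where they stand. Same-numbered TG and NTG libraries were not paired by the labels.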

Additional observations from a re-analysis of the deposited data

How the results depend on the processing

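Plod2, Pcolce, P4ha3, Plod3, Bmp1 and P4hb kept a lower level in TG hearts under each alternative that gave a value, and P4hb was called by none. The log2 fold changes ran from −1.04 to −0.72 for Plod2, from −0.92 to −0.61 for Pcolce and from −3.35 to −1.74 for P4ha3, which the filter of at least 10 counts in every library removed. Against 0 of the 10 genes called with edgeR, 1 (Plod2) was called with no low-count filter (232 of 26858 genes in all), and 3 each (P4ha3, Plod2 and Pcolce) by DESeq2 (583 of 14774), by edgeR's likelihood-ratio test (545 of 14774) and with the replicate block (231 of 14774). With 1 library left out, from 0 to 5 were called, with edgeR calling 3 without NTG 1 and 0 without any other library and DESeq2 calling 5 without NTG 1, where it called 1773 of 15136 genes in all, and 0 without TG 3, where it called 96 of 15049. From 3 to 6 had an unadjusted p under 0.05, 3 of them without NTG 2, as had 1567 of 15001 genes, and 6 without NTG 1, as had 4081 of 15136. The median of the 10 then ran from −0.52 without NTG 1 to −0.29 without NTG 2. Scaling by library size moved the median of all genes tested to −0.093 and that of the 10 to −0.49. P4ha1, P4ha2, Plod1 and Serpinh1 were called under none, and their sign changed under 4, 5, 1 and 2 alternatives. Deviations of same-numbered libraries correlated at 0.081, 0.173 and −0.252, and those of differently numbered libraries at −0.253 to 0.167. These values do not settle whether the numbers mark pairs, and the replicate block raised the genes called from 0 to 231 of 14774. Of the 10 genes, P4ha3 had the lowest counts, at 5 in TG 1 and TG 3, and so the largest counting error relative to its level. The cause of these changes was not tested.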
